A study of Danio rerio with 9 samples.

Results

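The glycine cleavage system is a mitochondrial enzyme complex that breaks down glycine and passes one of its carbons to folate. Described here are 3 of its genes, gcshb, gcsha and gldc, each with 1 probe set, out of 8793 named genes and 15617 probe sets in the table. The genes were chosen from these same arrays, because the paralogs gcshb and gcsha went in opposite directions with ethanol and gldc is their partner. Their ethanol differences are therefore given as a description, without a test.

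Eyes were dissected from zebrafish embryos grown at 28.5 °C, and total RNA was hybridized to 1 Affymetrix array per condition. The first array held untreated eyes of 24 hours post fertilization (hpf), labelled as pretreatment, and the other 8 were pairs of a control and an ethanol array at 27, 30, 36 and 48 hpf. Sources used here do not give the strain, the ethanol dose or the length of exposure. The title of the study asks about eye gene expression after embryonic ethanol and about Heat Shock Factor 1. Groups follow the sample titles; a second label field, the treatment characteristic, contradicts them at 30 and 36 hpf, where both ethanol arrays carry the value none and the control of 36 hpf carries ethanol.

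In glycine cleavage, the P protein (gldc) removes the carboxyl group of glycine. It loads the remainder onto a lipoyl arm of the H protein (gcsha and gcshb), a small shuttle that carries it between the other subunits. The T protein (amt) then releases ammonia and hands the carbon to tetrahydrofolate, and the L protein (dldh), which also serves pyruvate and 2-oxoglutarate dehydrogenase, reoxidizes the arm. In humans, loss of the P or T protein causes nonketotic hyperglycinaemia, a disease of the infant brain, and in mice the system is known for its part in neural tube closure.

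Signals are MAS5 brightness values which had been scaled before deposit to the same trimmed mean of 125 on every array (2% off each end). They are compared between arrays for 1 probe set, or for a sum over the same probe sets, in which the brightest weigh most. Signals of different probe sets are not read as relative amounts. Differences are on a log2(signal + 5) scale, which understates changes of dim probe sets. Of the 15502 probe sets that were not controls, the 9301 brightest were tested, and all 3 members were among them. No condition had a second array, so the spread was taken between stages or around a fitted line, and the number of arrays limits the precision. Of 22 retina marker genes on the array, 20 were tested. Mean signals over the 9 arrays were 964 for pax6a and 465 for six3a, transcription factors of the retina and lens, and 27.6 for rx1. The retina genes tbx5a and vax2 lay below the filter, at 3.07 and 13.6.

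The H protein gene gcshb was the member with the largest difference. In untreated eyes its signal was 34.5, 23.3, 51.3, 72.7 and 78.4 at 24, 27, 30, 36 and 48 hpf. With ethanol it was 117, 188, 242 and 204 from 27 to 48 hpf. Every ethanol array was brighter than every untreated array, so the groups did not overlap. The ratio of ethanol to control was 5.03, 3.66, 3.33 and 2.60 at these stages, the narrowest gap being at the last. On the log2 scale the mean difference was 1.72 ± 0.32 (SD over 4 stages), the sixth highest of the 9301 probe sets (rank 6). It was at least 2-fold at all 4 stages, which held for 0.14% of the tested probe sets in either direction.

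The other H protein gene, gcsha, lay on the opposite side by a small amount. Its untreated signals were 362, 366, 368, 294 and 253 at 24, 27, 30, 36 and 48 hpf. With ethanol the signals were 307, 268, 259.8 and 188 at 27, 30, 36 and 48 hpf. The ethanol array was the dimmer of the pair at each stage, but the ranges of the 2 groups overlapped, the control range being 253 to 368. Stage by stage the log2 difference was -0.25, -0.45, -0.17 and -0.42, with a mean of -0.32 ± 0.13 (SD over 4 stages). That placed gcsha at rank 902 from the bottom of the 9301 probe sets, and 14.4% of them were lower with ethanol at all 4 stages.

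The P protein gene gldc was higher with ethanol at each stage. Untreated eyes gave 138, 115, 155, 165 and 107 at 24, 27, 30, 36 and 48 hpf. Ethanol eyes gave 243, 349, 335 and 419 in the same order of stages from 27 hpf. The dimmest ethanol array lay above the brightest untreated one. The ratio was 2.11, 2.25 and 2.03 at the first 3 stages and 3.93 at 48 hpf, where the control was at its lowest and the ethanol array at its highest. The mean log2 difference was 1.28 ± 0.44 (SD over 4 stages), rank 40 from the top, and 17.8% of probe sets were higher with ethanol at all 4 stages. Each of the 12 stage differences of the 3 genes had the sign of its gene's mean, as did those of 32.1% of tested probe sets; the choice of the genes used this contrast, so nothing is read from these counts. Ethanol arrays lay wholly above the 4 controls in 4.72% of tested probe sets, among them gcshb and gldc.

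**Figure D1:**
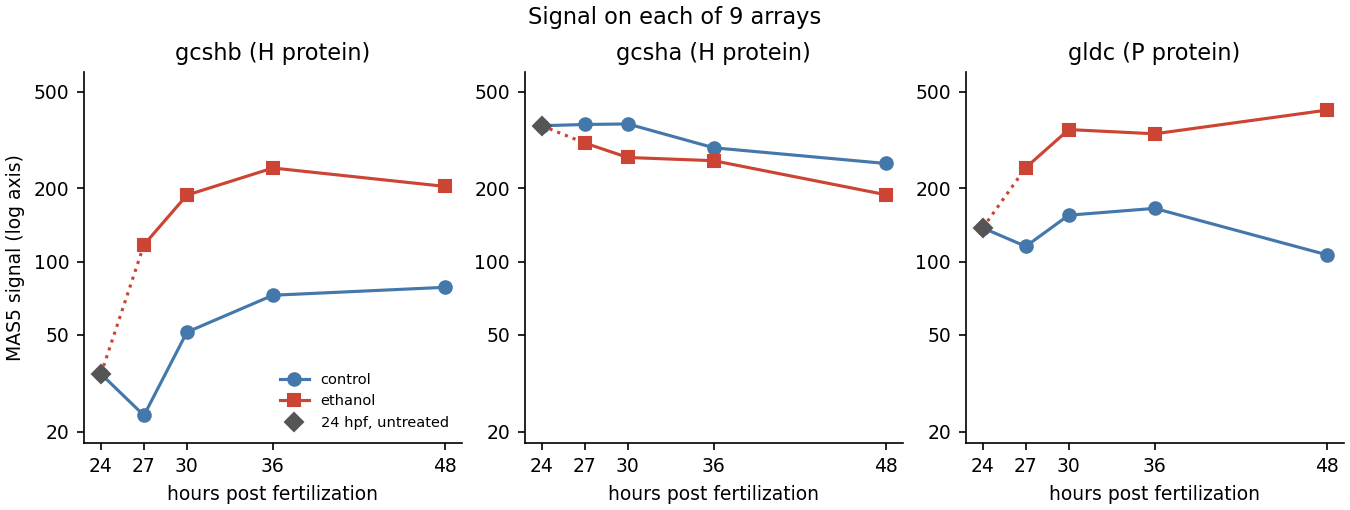
MAS5 signal (log axis) against hours post fertilization for gcshb, gcsha and gldc; each point is 1 array, blue for controls, red for ethanol and grey for the untreated 24 hpf array, which starts both lines. The red points of gcshb and gldc lie above all blue points, with gcshb at 117 to 242 against 23.3 to 78.4, while those of gcsha lie slightly below their controls, at 188 to 307 against 253 to 368.

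The departures were present at the first stage sampled. From the 24 hpf array to the 27 hpf control, gcshb differed by -0.48, gcsha by 0.02 and gldc by -0.24 on the log2 scale. From the same 24 hpf array to the 27 hpf ethanol array, the differences were 1.63 for gcshb, -0.23 for gcsha and 0.80 for gldc. These 2 sets of values share the 24 hpf array. Between the 27 and 48 hpf ethanol arrays, gcshb and gldc differed by 0.77 each and gcsha by -0.69; between the controls of those stages the values were 1.56, -0.11 and -0.52 for gcshb, gldc and gcsha. For gcshb the control series thus moved more than the ethanol series over this time, and for gldc the ethanol series moved more. These differences between the series were not tested.

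Normal development was examined in the 5 untreated arrays, which hold none of the ethanol arrays but share the 4 controls with the contrast that chose the genes, as a slope on hpf expressed as the change over 24 hours. By limma with Benjamini-Hochberg adjustment over all tested probe sets, gcshb rose by 1.36 ± 0.38 (SE; adjusted p = 0.0338). A call asked for an adjusted p under 0.05 and at least a 2-fold change, and 8.92% of probe sets were called as rising, so 1 rising gene among 3 says little by itself. The gcshb call was lost without the 24 hpf array (adjusted p = 0.0658) and without the 48 hpf control, where the slope was 2.45 (adjusted p = 0.0965). It was also lost under quantile normalization (adjusted p = 0.0577) and with untreated arrays taken by the treatment characteristic (adjusted p = 0.429).

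For gcsha the slope was -0.58 ± 0.22 (SE; limma adjusted p = 0.0947), which met neither criterion. The slope of gldc was -0.24 ± 0.29 (SE; limma adjusted p = 0.619), and it was 0.74 without the 48 hpf control, so its direction rested on that array. In the 24 hpf array followed by the 4 ethanol arrays, the slopes were 1.82 for gcshb, -0.84 for gcsha and 1.24 for gldc. The ethanol arrays took part in the choice of the genes, as the controls did, so this last series is given for its values only.

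Over all tested probe sets, 2.25% were called for ethanol, 23.9% had an unadjusted p under 0.05 and 55.6% lay above 0, and the counts of every list that follows are to be read against these shares. The remaining genes of the system and of lipoate supply did not share the size of the gcshb and gldc differences. The members were chosen on this contrast, so nothing is read from that gap. The T protein gene amt had no named probe set here. The L protein gene dldh had control signals of 331, 452, 453 and 221 and ethanol signals of 429, 484, 618 and 493 at 27, 30, 36 and 48 hpf. Each ethanol value was above its control, the gap being widest at 48 hpf, and the groups overlapped; the mean log2 difference was 0.51 ± 0.18 (SE; limma adjusted p = 0.131). The gene lipt1, for a lipoyltransferase that attaches lipoate to enzymes, had control signals of 83.7, 71.6, 67.8 and 53.2 and ethanol signals of 51.7, 51.8, 46.1 and 27.4. All 4 ethanol arrays were below all 4 controls, a separation seen in 2.59% of tested probe sets. The untreated 24 hpf array, at 51.77, lay within the ethanol range, whose highest value was 51.79 at 30 hpf. The mean log2 difference of lipt1 was -0.61 ± 0.13 (SE, limma adjusted p = 0.0524), just short of a call.

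The making of lipoate needs iron-sulfur clusters, and the genes of that route stood closer to 0. The lipoate synthase gene lias had a log2 difference of 0.10. The cluster assembly genes nfu1, bola3 and glrx5 had -0.30, -0.10 and -0.16, and mecr, of the mitochondrial fatty acid synthesis that supplies the octanoyl precursor, had -0.22. Of the 7 genes of this list above the signal filter, 0 were called for ethanol in limma (2 at an unadjusted p under 0.05), 2 lay above 0 and the median was -0.16, beside a median of 0.04 over all tested probe sets. In untreated eyes all 7 had negative slopes, with a median of -0.56 over 24 hours, and bola3 fell by 1.16 (SE 0.21, limma adjusted p = 0.00589).

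**Figure D2:**
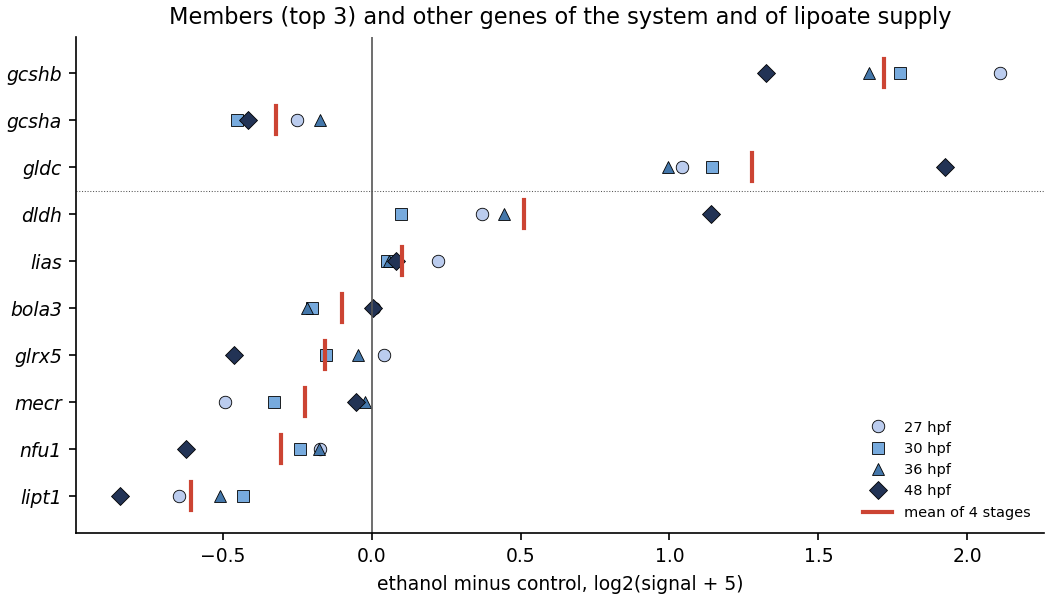
Ethanol minus control on the log2(signal + 5) scale at each of 4 stages (blue symbols) with their mean (red bars), for the 3 members above the dotted line and 7 other genes of the system and of lipoate supply below it. The points of gcshb lie between 1.32 and 2.11 and those of gldc between 1.00 and 1.92, while the mean of dldh is 0.51 and that of lipt1 is -0.61.

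Wider glycine metabolism was read from 6 lists of 132 genes in all, of which 79 had a named probe set and 61 were bright enough to be tested. With ethanol 1 of the 61 was called, or 1.64%, against the 2.25% of all tested probe sets. The called gene was eif4ebp3l, a repressor of cap-dependent translation, with a log2 difference of 0.93 ± 0.15 (SE; limma adjusted p = 0.0303). It had control signals of 138, 168, 118 and 117 and ethanol signals of 227, 280.3, 231 and 309.7 at 27, 30, 36 and 48 hpf. All 4 ethanol arrays were brighter than the controls, a separation seen in 4.72% of tested probe sets. With the arrays of 30 or of 36 hpf left out, or under quantile normalization, the count of 1 became 0. It became 2 with median centring or without 27 hpf, 3 at a pseudocount of 20, and 4 of 41 with the upper 30% of probe sets. Of the 61 genes, 41% lay above 0, against 55.6% of all tested probe sets, and the median was -0.07. The median over all tested probe sets, 0.04 as reported, changed sign with the processing. It was -0.02 with the upper 30% of probe sets or with median centring, -0.01 with quantile normalization and 0.06 with no filter. The difference between listed genes and all probe sets was not tested.

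Serine synthesis and folate genes, which make glycine and take up its carbon, had a median of -0.13 over 11 tested genes, with 4 above 0 and 0 called in limma (2 at an unadjusted p under 0.05). The mitochondrial folate carrier slc25a32a was higher at each stage, by 0.69 ± 0.19 on average (SE; limma adjusted p = 0.0781), and the widest gap was 1.35 at 30 hpf. The serine-pathway genes phgdh and psat1 stood at 0.05 and 0.16, and shmt2, which interconverts serine and glycine in mitochondria, at -0.15. The mitochondrial folate enzyme mthfd2 stood at 0.29 (limma adjusted p = 0.43), the folylpolyglutamate synthase fpgs at -0.32 (0.199) and the formyltransferase mtfmt at -0.24 (0.291). In untreated eyes mthfd1b, the cytosolic folate enzyme, fell by 1.38 over 24 hours (SE 0.23, limma adjusted p = 0.00416).

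Enzymes that use or form glycine had a median of -0.07 over 13 tested genes, and 0 were called for ethanol in limma (4 at an unadjusted p under 0.05). The creatine synthesis genes gatm and gamt stood at 1.06 ± 0.34 and 0.57 ± 0.14 (SE; limma adjusted p = 0.114 and 0.0672). At 30 hpf gatm differed by 2.51, and at 48 hpf by -0.05. The betaine enzyme bhmt stood at 0.48 (limma adjusted p = 0.398), with 1.68 at 30 hpf, and gcat, of threonine breakdown to glycine, at -0.44 (limma adjusted p = 0.14). During normal development gart, of purine synthesis, fell by 1.67 and gamt fell by 1.15, while alas2, of haem synthesis in red cells, rose by 1.09 (limma adjusted p = 0.00274, 0.0126 and 0.0239).

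Among 5 tested genes of glycine transport the median was 0.33, with 0 called for ethanol in limma (2 at an unadjusted p under 0.05). The neutral amino acid transporter slc1a4 stood at 0.89 ± 0.25 (SE; limma adjusted p = 0.0819), with 1.57 at 27 hpf and -0.05 at 36 hpf. Its relatives in function slc38a4 and slc38a2 stood at 0.57 (limma adjusted p = 0.0568) and 0.33 (0.227), and the vesicular GABA and glycine transporter slc32a1 at -0.17 (0.562). In untreated eyes slc32a1 rose by 2.43 and slc38a2 rose by 1.03 over 24 hours (limma adjusted p = 0.00183 and 0.0118). The glycine receptor genes with a probe set were all below the signal filter.

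Genes of the other enzyme complexes that hold a lipoyl arm, including subunits and regulators without the arm, lay mostly lower. Of these, 9 of 11 tested genes were below 0, with a median of -0.11 and 0 called in limma (2 at an unadjusted p under 0.05). The succinyltransferase dlst of 2-oxoglutarate dehydrogenase stood at -0.38, nearly equal at each stage (-0.34 to -0.40; limma adjusted p = 0.11). The pyruvate dehydrogenase genes pdhx and pdhb stood at -0.35 and -0.28, and bckdha, of branched-chain amino acid breakdown, at -0.25 (limma adjusted p = 0.149, 0.235 and 0.32). The amino acid response genes, a program run by the factor Atf4 under amino acid shortage, had a median of 0.32 over 14 tested genes, 8 above 0, with eif4ebp3l the 1 called and 7 at an unadjusted p under 0.05 (beside 23.9% of all tested probe sets, with no test of that difference). The medians of this list by stage were 0.01, -0.07, 0.06 and 0.77 at 27, 30, 36 and 48 hpf. Within it cebpb stood at 0.74 (limma adjusted p = 0.287), atf5a at 0.70 (0.0988), slc7a3a at 0.66 (0.0781) and asns, for asparagine synthetase, at -0.39 (0.144). The gene slc3a2a, lower at each stage, stood at -0.40 (limma adjusted p = 0.106). Of the 7 genes at an unadjusted p under 0.05, asns and slc3a2a were lower with ethanol and the others higher. The amino acid transporter subunits slc3a2b and slc3a2a rose by 2.14 and 1.53 in untreated development, and the lipoprotein receptor vldlr rose by 1.59. Their limma adjusted p were 6.84e-04, 0.00385 and 0.00396. With these, 10 of the 61 listed genes were called for development, 6 rising and 4 falling (8.92% and 7.47% of all tested probe sets). That is 16.4%, as it is for all tested probe sets.

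**Figure D3:**
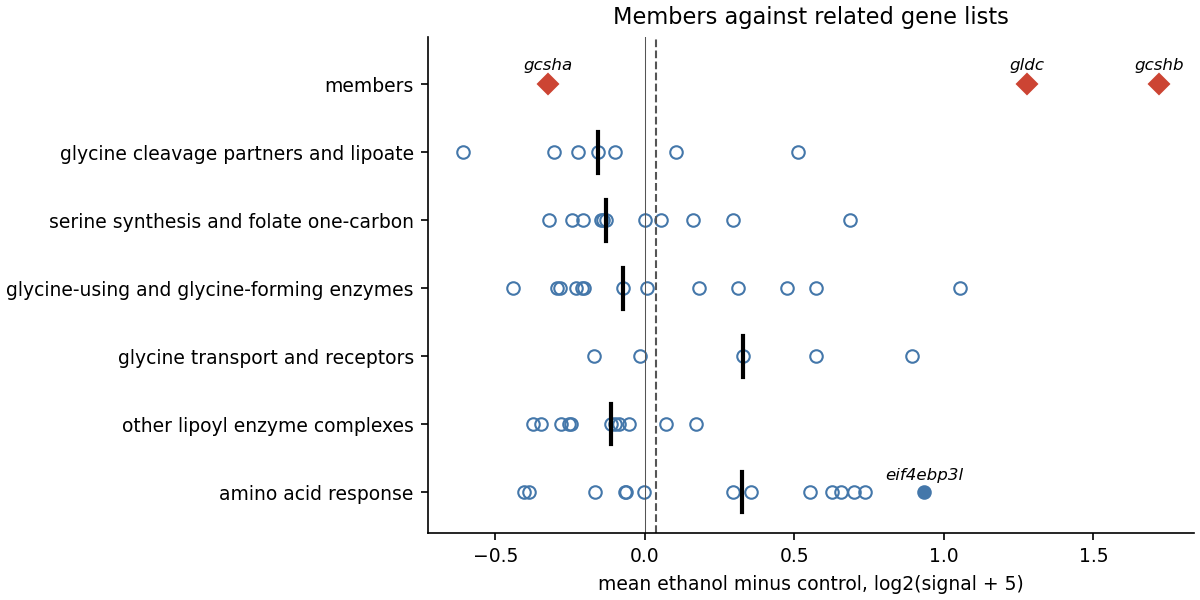
Mean ethanol minus control on the log2(signal + 5) scale, with the 3 members as red diamonds and each of 61 tested genes of 6 related lists as a circle, filled where called by limma; black bars are list medians and the dashed line is the median of all tested probe sets (0.04). Both gldc at 1.28 and gcshb at 1.72 lie to the right of all listed genes, and eif4ebp3l at 0.93 is the 1 filled circle. The members were chosen on this contrast, so their place is a description only.

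Markers of other tissues differed between the same arrays. In bulk eyes, more cells of a type and more RNA per cell cannot be told apart. Of the genes of brain outside the eye, 17 of 17 tested had a mean difference above 0 (55.6% of all tested probe sets). By limma 4 were called (2.25% of all). The summed signal of all 23 on the array was 1092 to 2007 in controls and 1739.6 to 2959 with ethanol. The median of their log2 differences was -0.02, 0.93, 0.67 and 1.68 from 27 to 48 hpf. The tested members went both ways at 27 hpf, from -1.57 (tbr1b) to 0.99 (mafbb), so the median there does not show that brain RNA was even between the arrays; gcshb stood at 2.11 and gldc at 1.04. At 48 hpf the highest value of gldc, 1.92, came beside the highest median of the brain list, 1.68, which lay above gcshb at 1.32. At the other stages the brain median lay below both genes, but some genes of the list did not. Of the 4 called, en2a (2.79), en1b (2.63) and olig3 (2.08) lay above gcshb (1.77) and gldc (1.14) at 30 hpf. At 36 hpf en2a (1.49), en1b (1.46) and olig3 (1.03) lay above gldc (1.00) and below gcshb (1.67). The remaining called gene, mafbb, lay below both members at these stages (1.08 and 0.60). In the brain list egr2b, wnt1 and hoxb1a were near background, with mean signals of 1.06, 3.22 and 2.20. Its gene gbx2 was lower with ethanol at 36 and 48 hpf (-0.34 and -0.53), and olig2 was lower at 27, 30 and 36 hpf. In untreated eyes these 2 rose by 3.44 and 2.29 over 24 hours, while 14 of the 17 fell.

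Liver and yolk genes had 10 of 11 tested members above 0 and 3 called, beside the same shares, with a summed signal over 15 genes of 401 to 1685 in controls and 1197 to 3426 with ethanol. Their median difference was 0.77, 3.21, 0.13 and 0.91 in the same order. At 30 hpf this median lay above gcshb at 1.77 and gldc at 1.14, and at the other stages below both. At 36 hpf the list members ran from -0.78 (apoc1) to 1.27 (fabp1b.1), and the called genes fabp1b.1, rbp4 (1.11) and fetub (1.05) lay above gldc at 1.00 and below gcshb at 1.67. In untreated eyes rbp4 and rbp2a rose by 3.24 and 2.99 over 24 hours. The other 9 tested genes of the list fell, and the list median was -2.16. The 30 hpf peak of that list came with those of gatm and bhmt, and its part in them was not tested. For blood and vessels, 8 of 10 genes lay above 0 and 3 were called, again beside 55.6% and 2.25%, with a summed signal over 12 genes of 3354 to 4231 in controls and 4275 to 5335 with ethanol, and medians of 0.42 to 0.58 at the 4 stages. The part of these tissues in the differences of gcshb and gldc was not tested at any stage. Of the retina genes 7 of 20 lay above 0 (median -0.09) and 1 was called lower. The medians of the lens, pigment epithelium, muscle and skin lists were 0.03, -0.32, -0.12 and 0.06, over 5, 3, 5 and 8 tested genes. In the skin list krt1-19e was called lower (-0.80, limma adjusted p = 0.0352), and in the lens, pigment epithelium and muscle lists 0 were called. For muscle, with 5 of 14 genes on the array tested, the stage medians ran apart, at 0.16, 0.82, 0.27 and -1.79 from 27 to 48 hpf.

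**Figure D4:**
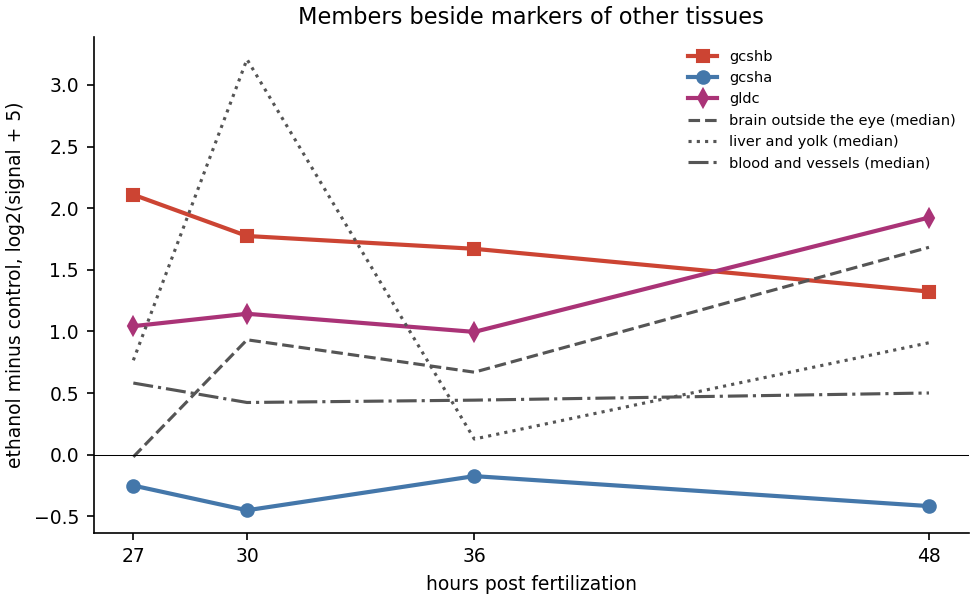
Ethanol minus control on the log2(signal + 5) scale against hours post fertilization for gcshb, gcsha and gldc (coloured) and, in grey, the median over tested marker genes of brain outside the eye, liver and yolk, and blood and vessels. At 27 hpf gcshb is at 2.11 and the brain median at -0.02 (members -1.57 to 0.99), and at 36 hpf gcshb is at 1.67 and the liver and yolk median at 0.13 (members -0.78 to 1.27). At 30 hpf the liver and yolk median, 3.21, is above gcshb at 1.77 and gldc at 1.14. At 48 hpf the brain median, 1.68, is above gcshb at 1.32 and below gldc at 1.92.

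The profiles most like those of the members were found over the 9 arrays, as the root mean square difference between log2 profiles after each was centred on its own mean. Nearest to gcshb was abat, the GABA transaminase, at 0.33, with control signals of 22.9, 31.1, 36.2 and 40.0 and ethanol signals of 96.2, 113, 146 and 181 from 27 to 48 hpf. In abat the log2 difference at 48 hpf was 2.05, above its value at 27 hpf of 1.86, where gcshb ran the other way, from 2.11 to 1.32. The unnamed locus wu:fb51h06 (0.36), ppdpfb, named after a factor of pancreatic cell differentiation (0.44), uchl1, a ubiquitin hydrolase of neurons (0.49), and rnf144ab, of a ubiquitin ligase family (0.50), came next. Among the 6110 other named genes, gldc ranked 9 by likeness to gcshb, at 0.54, and gcsha ranked 5289, at 1.28, beside a median of 1.06 over all of them; the arrays are those on which the genes were chosen, so a near gldc and a far gcsha follow from the choice.

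Nearest to gldc were serpine2, a secreted protease inhibitor (0.26), gnrh2, the midbrain gonadotropin-releasing hormone (0.28), zfhx3a, a homeobox factor of neurons (0.29), tcf7l1a, a repressor of the Wnt pathway (0.30), and gchfr, a regulator of tetrahydrobiopterin synthesis (0.31). In serpine2 the ethanol signals were 186 to 261 and the control signals 85.1 to 124. In gnrh2, a dim probe set, the controls were 14.1 to 16.9 and the ethanol arrays 26.7 to 80.1. The profile of gcsha was shared closely by widely expressed genes: tada1, of a histone acetyltransferase complex (0.05), prpf19, of the spliceosome (0.05), the unnamed locus zgc:56106 (0.07), eif2s2, of translation initiation (0.07), and nup35, of the nuclear pore (0.07). The median distance from gcsha to all named genes was 0.36.

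**Figure D5:**
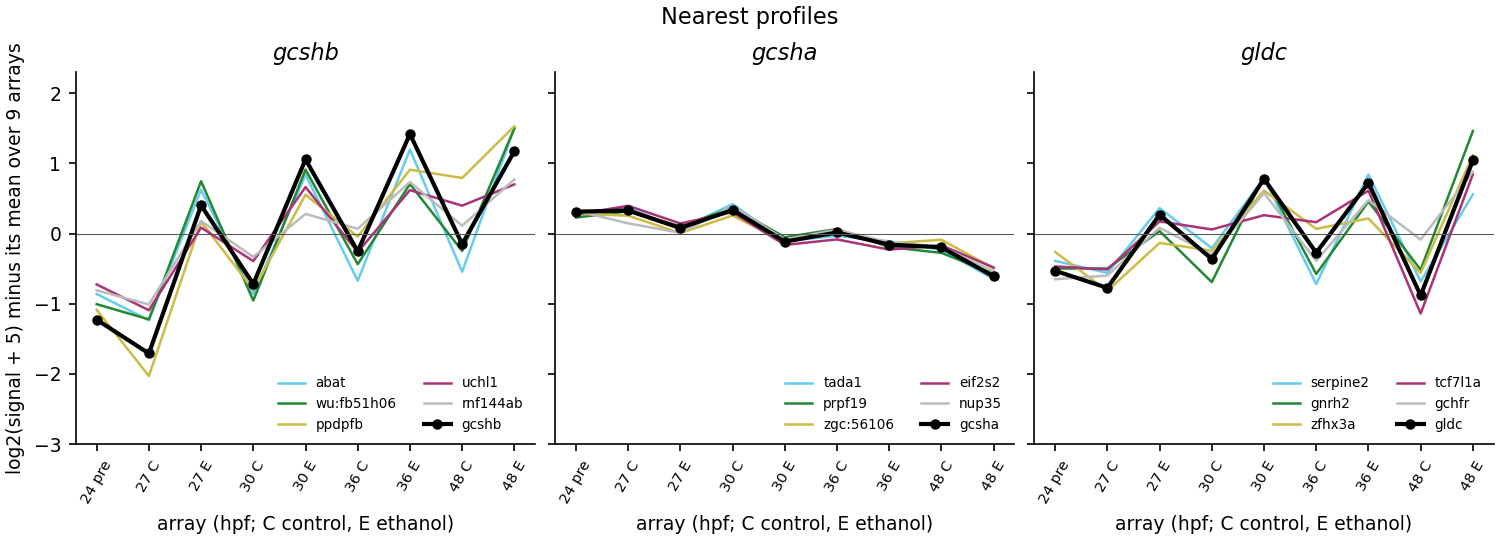
Log2(signal + 5) minus its mean over the 9 arrays, for each member (black) and the 5 named genes nearest to it (coloured), with arrays along the horizontal axis as hours post fertilization, C for control and E for ethanol. The lines of gcshb and gldc alternate between low control and high ethanol arrays, and that of gcsha declines with stage and is 0.05 to 0.07 in root mean square difference from its 5 nearest genes.

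The 3 members lie on different chromosomes, 7 for gcshb, 18 for gcsha and 5 for gldc, in the RefSeq annotation, which was used for gene order only. Of the 18 tested genes that are the nearest 3 on each side of a member, 0 were called for ethanol in limma and 5 had an unadjusted p under 0.05 (2.25% and 23.9% of all tested probe sets), with log2 differences from -0.48 to 0.84. The highest of these was zfhx3a (limma adjusted p = 0.0738), next to gcsha in that order and among the 5 profiles nearest to gldc. Beside gcshb, kars1, the lysyl-tRNA synthetase, stood at -0.25 and rpl13, a ribosomal protein, at 0.13. Beside gldc, the kinase gene jak2b stood at 0.10 and coq2, of ubiquinone synthesis, at -0.48.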

How the data were processed

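The values are intensities, MAS5 signals on a linear scale deposited by the authors, named MAS5 per the submitters' processing notes, whose version the sources used here do not give. The equal trimmed means (2% at each end) show scaling before deposit; the signals were used as deposited. There were no detection calls to use, and array values have no counting interval. After 115 control probe sets were left out, log2(signal + 5) was taken and the upper 60% by mean over 9 arrays was kept, 9301 probe sets with mean signals above about 22.7. Symbols came from the platform annotation: 10802 probe sets had 1, 135 several and 4680 none listed, and 10718 were brought up to date by gene identifier. Each of 6111 genes was read from its brightest probe set.

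Models were fitted in R 4.3.3 with limma 3.58.1 (lmFit and eBayes; Benjamini-Hochberg over all kept probe sets) and were tested on simulated data. The ethanol difference took stage as a block over the 8 arrays that form pairs; development used a slope on hpf over 5 untreated arrays. Each leaves 3 residual degrees of freedom, and nothing in the labels gives separate clutches, so p-values measure only the spread between these samples. Genes named were the members, per list the 4 with the largest absolute mean ethanol difference and any called for ethanol or development, and the 5 nearest profiles per member. List genes outside that rule (lias, glrx5, phgdh, psat1, shmt2, asns), the marker genes and the chromosomal neighbours were chosen after values were seen. Members and lists were chosen with earlier results of these data known. Alternatives were the pseudocount, filter, array scaling, left-out stages or arrays, label field and other sets of arrays.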

Additional observations from a re-analysis of the deposited data

Results flagged for a closer look

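Among 49 named genes, those with log2 ethanol differences of opposite sign at different stages, both at least 0.5 in size, were sought. The screen took in the members, the pathway genes of the naming rule and the nearest profiles, and left out the marker genes. Within it only mthfd2, the mitochondrial folate enzyme, met this, with 0.82 at 27 hpf (signal 263 in the control and 469 with ethanol) and -0.51 at 30 hpf (403 and 282). Some marker genes also met it, for example tbr1b (-1.57 at 27 hpf, 1.01 at 36 hpf) and apoc1 (3.65 at 30 hpf, -0.78 at 36 hpf). There was 1 array per condition, and the difference between stages was not tested.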

How the results depend on the processing

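The 3 members, chosen on this contrast, kept the direction of their ethanol difference under every alternative run. Each of the 12 stage differences had the sign of its gene's mean. Leaving out a stage or keeping 2 pairs therefore could not reverse a direction, and these runs show only how the size moved. With groups by the treatment characteristic, the 36 hpf pair is turned around and the 30 hpf pair adds nothing to the difference. The means were then 0.59 for gcshb, -0.16 for gcsha and 0.66 for gldc. On the 27 and 48 hpf pairs alone, where both labels match, they were 1.72, -0.33 and 1.48. Leaving out a stage gave 1.59 to 1.85 for gcshb, -0.37 to -0.28 for gcsha and 1.06 to 1.37 for gldc. Other scalings and pseudocounts moved them by less than the SD over stages. With the upper 30% of probe sets gcshb was below the filter and gave no value, and no second probe set existed for any member. Listed genes called for ethanol numbered 1 of 61 as reported, 3 of 61 at a pseudocount of 20 and 2 of 61 with median centring. With the upper 30% of probe sets they numbered 4 of 41. In these alternatives the listed share lay above that of all tested probe sets. As reported it lay below (1.64% against 2.25%), and neither difference was tested. The count was 0 with quantile normalization, with the treatment characteristic and on the 27 and 48 hpf pairs. Leaving out a stage gave 0 to 2. Over all probe sets 209 were called (151 higher, 58 lower). Without one stage the count was 4 (36 hpf) to 182, and 14 without 30 hpf. Of 9301 tested, it was 327 at a pseudocount of 20, 23 under quantile normalization (12 higher, 11 lower) and 281 under median centring (150 higher, 131 lower). It was 67 of 15502 with no filter and 226 of 4651 with the upper 30% (107 higher, 119 lower). It was 0 by limma with the treatment characteristic (100 at an unadjusted p under 0.05) and 0 on 2 pairs (873). The former kept all 8 paired arrays and turned the 36 hpf pair around. Its 30 hpf pair, both labelled none, entered the spread but not the difference. It therefore differs in both respects from the fit without 30 hpf, which gave 14.

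The developmental call of gcshb, 1.36 as reported, was lost under quantile normalization (1.18) and by the treatment characteristic (1.41). Its slope in the 24 hpf and ethanol arrays was 1.82, given for its value only. Leaving out an array gave 1.04 to 2.45. The slope of gldc turned positive over 9 arrays with ethanol as a term (0.15) and in the 24 hpf and ethanol arrays (1.24); leaving out an array gave -0.39 to 0.74. That of gcsha was -0.64 to -0.55 without 1 array. Listed genes called for development, 10 of 61 as reported, numbered 1 to 13 without 1 array. In the 24 hpf and ethanol arrays they numbered 17 of 61, beside 1907 of all 9301 tested probe sets. Over all probe sets 1525 were called, 628 with the upper 30% (fewer tested) and 267 to 1517 without 1 array. The lowest counts, 1 and 267, came without the 48 hpf control. Where no cause is named, the cause was not tested.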
